A study of Mus musculus with 4 samples.

Results

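The genes described here encode the proteins of the mitochondrial ribosome. They were taken as all rows of the deposited comparison table whose gene symbol begins with Mrpl or Mrps followed by a number, and where a gene had several probe sets the one with the highest mean was used. This gave 75 genes on 87 probe sets, of 20723 genes and 34760 probe sets in all. By symbol, 46 belong to the large subunit (Mrpl) and 29 to the small subunit (Mrps).

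Expression arrays with 1 colour were run on total RNA of E14 cells, an embryonic stem cell line from Ola129 mice that was grown on gelatin in 15% serum with leukemia inhibitory factor. In 2 samples (esiOgt 1 and 2) the cells had been transfected with esiRNA against Ogt, and in 2 control samples (esiGFP 1 and 2) with esiRNA against GFP. The transfection was transient, RNA was taken 48 h after it, and the labels do not give the share of cells that took it up. Values are log2 expression levels after RMA, and every difference below is esiOgt minus esiGFP on that scale.

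The mitochondrial ribosome makes the few proteins that mitochondrial DNA encodes, all of them membrane subunits of the respiratory chain and the ATP synthase. Its RNAs come from mitochondrial DNA, while its proteins are encoded in the nucleus, made in the cytosol and imported. Many of these proteins have relatives in the bacterial ribosome, and a further group was added during the evolution of mitochondria. The small subunit decodes the messenger RNA, and the large subunit forms the peptide bond and holds the tunnel through which the new protein leaves. The product of Ogt attaches single N-acetylglucosamine sugars to proteins of the nucleus, the cytosol and the mitochondria.

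Ogt itself read 9.73 and 10.09 in the esiOgt samples, against 11.51 and 11.38 in the esiGFP samples, a difference of -1.54 (SE 0.17), and it too had an adjusted p of 0.674 in limma. The array medians over all probe sets lay between 6.40 and 6.46. Markers of pluripotent cells were high in all 4 arrays, with group means of 10.04 to 13.45 for the 8 genes, and the summed level of that list was 97.5 and 98.1 in esiOgt samples against 97.07 and 97.44 in esiGFP samples. The 10 markers of fibroblasts, the usual feeder cells, had group means between 3.41 and 7.21. Their summed level was 55.88 and 55.59 in esiOgt samples, against 55.78 and 55.97 in esiGFP samples. Single markers lay on both sides of 0 within these sums. Fbn1, a fibrillin of the fibroblast list, read 6.09 and 6.36 in esiOgt samples against 5.72 and 5.66 in esiGFP samples, at 0.54 (SE 0.15, unadjusted p 0.0180 in limma), and Col1a1, a collagen of that list, was at -0.30 (SE 0.14). In the pluripotent list Esrrb read 11.74 in both esiOgt samples against 11.45 and 11.41 in esiGFP samples, at 0.31 (SE 0.11, unadjusted p 0.0487 in limma), and Sox2 was at -0.12 (SE 0.15). Neither Fbn1 nor Esrrb passed after adjustment. With 1 sample left out, the unadjusted p in limma ran from 0.0176 to 0.0888 for Fbn1 and from 0.144 to 0.202 for Esrrb, and their part in the values of the mitoribosomal genes was not tested. An array of bulk RNA cannot tell fewer cells of a type from less RNA per cell. Whether replicates are separate cultures is not in the labels, and the p-values therefore cover only the spread among these arrays, possibly a technical one.

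The probe sets of all 75 mitoribosomal protein genes lay above the array median in all 4 arrays. None of the 75 genes passed an adjusted p of 0.05 in limma, where 0.0% of the 34760 probe sets passed. At an unadjusted p under 0.05 there were 2 of the 75 genes, both lower in the esiOgt samples, beside 6.06% of all symbols at that level. That is 2.67% of the mitoribosomal genes, below the background share and below the 7.9% of symbols at or above the median level of all probe sets. In the direction of these 2 genes the background was 2.66%, and in the other direction, which held 0 of the 75 genes, it was 3.4%.

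The genes were spread over both sides of 0. Of the 75, 36 were higher and 39 lower in the esiOgt samples, and 48.8% of all symbols were lower. The median difference was -0.01, against 0.00 over all symbols. The middle of the distribution, from the first to the third quartile, ran from -0.16 to 0.14, against -0.12 to 0.14 over all symbols. For 55 genes the difference was under 0.2 in size, as it was for 67.6% of all symbols. Among symbols at or above the median level of all probe sets, 44.15% were lower and the median difference was 0.03. Their quartiles were -0.11 and 0.18, and 62.4% had a difference under 0.2 in size. The gaps between the genes and these symbols were not tested. The 95% confidence interval stayed within a 2-fold change in either direction for all 75 genes, which was so for 91.1% of all symbols. The lowest bound was -0.88, for Mrps9, and the highest 0.90, for Mrpl36. For 52 of the 75 genes the gap between the replicates of one group, the wider of the 2 gaps, was larger than the difference between the groups. The same held for 14806 of all 20723 symbols, and for 8389 of the 12095 at or above the median level. These gaps were partly common to same-numbered samples, whose deviations from the group means had a correlation of 0.479 over all probe sets. The labels do not say what a number shares.

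**Figure D1:**
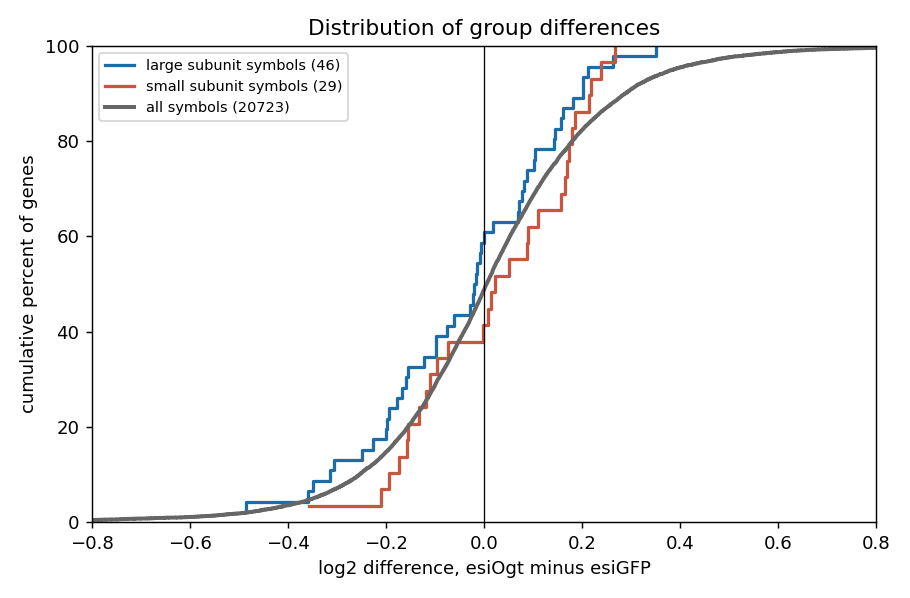
Cumulative percent of genes (vertical axis) against the log2 difference, esiOgt minus esiGFP (horizontal axis), for the 46 large subunit symbols, the 29 small subunit symbols and all 20723 symbols. The 3 curves cross 50% close to 0, with medians of -0.02, 0.02 and 0.00, and the values of the subunits run from -0.49 to 0.35.

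The genes at an unadjusted p under 0.05 were Mrpl54 and Mrpl50, both of the large subunit and both without a bacterial relative. Mrpl54 read 8.87 and 8.65 in the esiOgt samples, against 9.23 and 9.26 in the esiGFP samples. Both esiOgt arrays lay below both esiGFP arrays. The difference was -0.49 (SE 0.14, 95% confidence interval -0.85 to -0.12), or 1.40-fold lower, with an unadjusted p of 0.0198 and an adjusted p of 0.674 in limma. Mrpl50 read 9.83 and 9.59 in the esiOgt samples, against 10.23 and 10.16 in the esiGFP samples. These groups did not overlap either. The difference was -0.49 (SE 0.14, 95% confidence interval -0.87 to -0.10), with an unadjusted p of 0.0234 and an adjusted p of 0.674 in limma. For each gene p was 0.333 by an exact permutation test (two-sided), the smallest value 2 samples against 2 allow. Neither gene stayed at an unadjusted p under 0.05 in limma without esiGFP 1 (0.0815 for Mrpl54 and 0.111 for Mrpl50), without esiGFP 2 (0.0938 and 0.0783) or without esiOgt 2 (0.0914 and 0.103).

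The groups did not overlap for 37 of the 75 genes, in 21 with both esiOgt arrays lower and in 16 with both higher. That is 49.3%, beside 39.5% of all symbols and 41.0% of the 12095 symbols at or above the median level of all probe sets. By direction the background was 19.4% for lower and 20.0% for higher. Of the 12095 symbols at or above the median level, 2095 were lower and 2865 higher without overlap. No test was made of the gap between these shares.

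Promoter sequences are shown to set Mrpl50, the gene with the smallest p that has an entry, beside 2 genes that hold a motif of a factor of nuclear mitochondrial genes. RefSeq's table of build GRCm38.p6 held windows of 300 bases, 250 before the start site and 50 after it, for 66 of the 75 genes. Motifs were searched on both strands with no mismatch. They were CCGGAAG for ETS factors such as GABP, AAGATGGCG for YY1 and, for NRF1, the palindrome in capitals in the Mrpl39 sequence, factors known to drive nuclear genes of mitochondrial proteins. The stretches before the start site are chr16:84735245-84735494 on the minus strand for Mrpl39, chr17:46110754-46111003 on the plus strand for Mrps18a and chr4:49521084-49521333 on the minus strand for Mrpl50, each read in the direction of the gene. Capitals mark a motif, the NRF1 motif in Mrpl39 and the ETS motif in Mrps18a, and Mrpl50 holds none of the 3. Mrps18a also holds the YY1 motif, which reaches past the start site and is not shown.
Mrpl39: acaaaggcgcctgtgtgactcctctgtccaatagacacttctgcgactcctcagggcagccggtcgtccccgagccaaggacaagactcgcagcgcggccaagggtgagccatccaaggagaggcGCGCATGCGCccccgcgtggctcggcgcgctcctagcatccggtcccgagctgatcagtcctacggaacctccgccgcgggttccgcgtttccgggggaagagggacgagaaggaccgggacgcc
Mrps18a: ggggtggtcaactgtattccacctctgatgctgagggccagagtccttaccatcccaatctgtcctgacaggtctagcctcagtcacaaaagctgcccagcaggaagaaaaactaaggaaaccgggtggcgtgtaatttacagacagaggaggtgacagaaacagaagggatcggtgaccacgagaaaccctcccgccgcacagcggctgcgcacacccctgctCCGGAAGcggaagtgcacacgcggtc
Mrpl50: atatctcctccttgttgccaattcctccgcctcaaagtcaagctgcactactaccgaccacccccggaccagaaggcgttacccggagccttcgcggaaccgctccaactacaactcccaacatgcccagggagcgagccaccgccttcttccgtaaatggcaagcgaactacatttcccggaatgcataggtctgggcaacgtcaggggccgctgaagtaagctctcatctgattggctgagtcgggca

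The ETS motif stood in the windows of 23 of the 66 genes (34.8%), beside 13.4% of the 14208 measured genes with a window and 8.86% of all 32851 promoters. The YY1 motif stood in 8 (12.1%), beside 2.30% and 1.40%. The NRF1 motif stood in 3 (4.55%), beside 1.62% and 0.971%, and all 3 were large subunit genes, Mrpl9, Mrpl32 and Mrpl39. At least 1 of the motifs stood in 32 of the 66 windows, or 48.5%, against 16.4% of the measured genes. ETS and YY1 matches overlapped each other in 0 of the genes. Neither base composition nor expression level was matched between the sets, and the measured genes include those under the median level. The ETS motif stood in 12 of 40 windows of the large subunit and 11 of 26 of the small subunit. The 23 genes with the ETS motif had a median difference of -0.02, against -0.01 for the 43 without it. For YY1 the medians were 0.05 with the motif and -0.01 without. A match of letters is a description and does not show binding.

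The large subunit genes had 19 of 46 higher and 27 lower, with a median difference of -0.02. Split by kinship, the 30 with a bacterial relative had 11 higher and 19 lower (median -0.04), and the 16 specific to mitochondria had 8 and 8 (median 0.00). Proteins at the base and stalk where translation factors bind did not go one way. Mrpl11, which binds the ribosomal RNA at the stalk base, read 9.86 and 9.66 in esiOgt samples against 10.17 and 10.04 in esiGFP samples, with no overlap. Its difference was -0.35 (SE 0.14). Mrpl10, which carries the stalk, read 11.35 and 11.43 in esiOgt samples against 11.18 and 11.24 in esiGFP samples, also without overlap but in the other direction, at 0.18 (SE 0.12). Mrpl12, the stalk protein itself, read 9.50 and 9.74 in esiOgt samples against 9.51 and 9.75 in esiGFP samples. Its groups coincided, with a difference of -0.01 (95% confidence interval -0.45 to 0.42).

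Around the exit tunnel, Mrpl47 read 7.88 and 7.63 in esiOgt samples against 7.97 and 8.26 in esiGFP samples, a difference of -0.36 (SE 0.17) that was -0.21 without esiGFP 2 and -0.23 without esiOgt 2. Mrpl24, picked out after its values were seen, differed by -0.31 (SE 0.16), while Mrpl23, another protein of the tunnel exit, differed by -0.03 (SE 0.14). Mrpl3, which lies near the site of peptide bond formation and is mutated in a human cardiomyopathy, differed by 0.08 (SE 0.12). Mrpl44, with a fold like ribonuclease III, differed by 0.08 (SE 0.13). Mrpl39, which resembles part of a threonyl-tRNA synthetase, read 11.40 and 11.54 in esiOgt samples against 11.25 and 11.37 in esiGFP samples. The groups lay just apart, with a difference of 0.16 (SE 0.13). Mrpl40 had the same mean in both groups, 11.62, and Mrpl41, which can bind Bcl2, differed by -0.25 (SE 0.15).

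On the higher side of the large subunit, Mrpl35, a relative of a bacterial protein of the same number, read 10.99 and 10.96 in esiOgt samples against 10.67 and 10.75 in esiGFP samples. The groups lay apart, with a difference of 0.26 (SE 0.12) and an adjusted p of 0.686 in limma. Mrpl38, which is specific to mitochondria, read 10.47 and 10.11 in esiOgt samples against 10.05 and 9.83 in esiGFP samples. Its difference of 0.35 (SE 0.18) was the highest of the 75 genes, but 0.17 without esiOgt 1 and 0.53 without esiOgt 2. Mrpl17 differed by 0.20 (SE 0.12) and Mrpl21 by 0.20 (SE 0.13), both relatives of bacterial proteins.

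**Figure D2:**
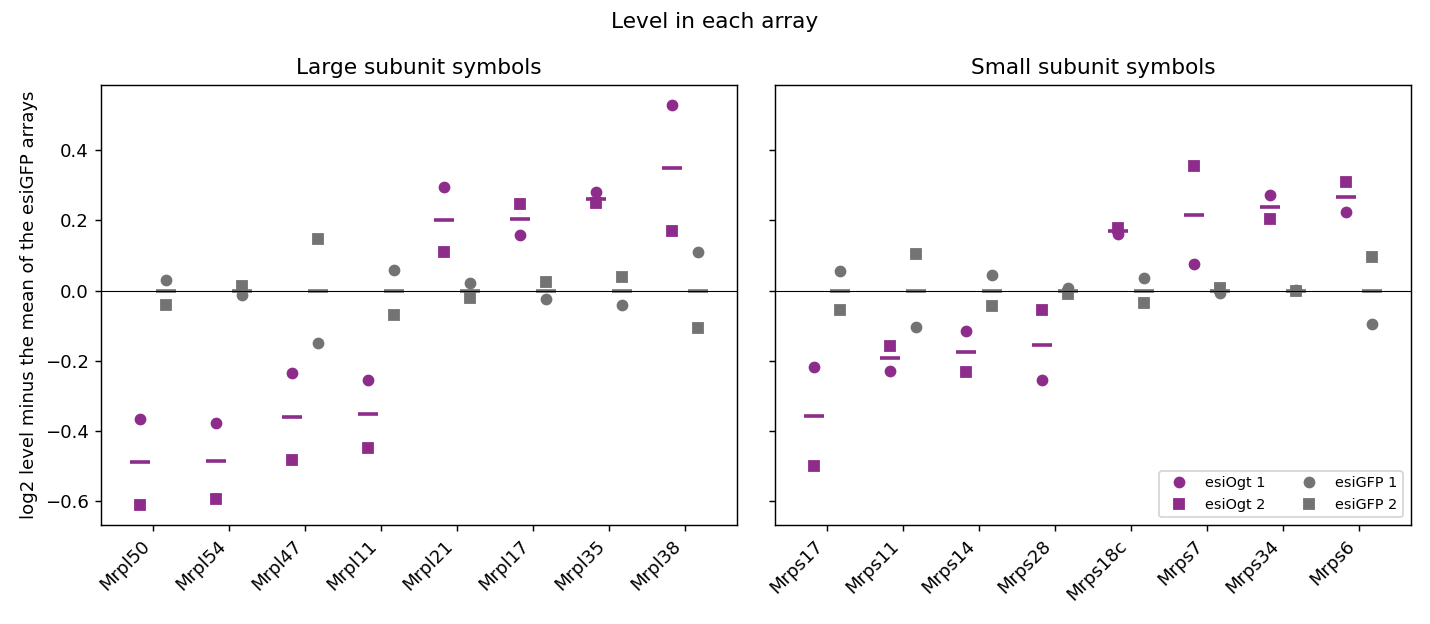
Log2 level in each array minus the mean of the esiGFP arrays (vertical axis) for the 4 genes per direction with the smallest p in each subunit. Points are single arrays, esiOgt left and esiGFP right for each gene, circles replicate 1 and squares replicate 2, and bars are group means; the esiOgt mean runs from -0.49 for Mrpl50 to 0.35 for Mrpl38.

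The small subunit genes had 17 of 29 higher and 12 lower, with a median of 0.02. The 16 with a bacterial relative had 9 higher and 7 lower (median 0.03), and the 12 specific to mitochondria 7 and 5 (median 0.06). This split follows the symbols. Among the 12 are Mrps18a (0.185) and Mrps30 (0.09), both higher, whose products are known to sit in the large subunit. The median of the 12 without them was not computed. No gene of this subunit stood at an unadjusted p under 0.05 in limma, and the smallest adjusted p was 0.686. That was for Mrps17, a relative of a bacterial protein that binds early in assembly. It read 7.44 and 7.15 in esiOgt samples against 7.71 and 7.60 in esiGFP samples. The groups lay apart, with a difference of -0.36 (SE 0.15), and without esiOgt 1 the unadjusted p was 0.0470 in limma.

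The platform of the small subunit holds Mrps6 and Mrps18c, relatives of a bacterial pair that binds together. Mrps6 read 9.13 and 9.21 in esiOgt samples against 8.808 and 8.997 in esiGFP samples, at 0.27 (SE 0.13). Mrps18c read 9.62 and 9.63 in esiOgt samples against 9.49 and 9.42 in esiGFP samples, at 0.17 (SE 0.12). For both the esiOgt arrays lay above the esiGFP arrays. The paralogs of Mrps18c had overlapping groups, with Mrps18b at 0.11 (SE 0.16) and Mrps18a at 0.19 (SE 0.17). Mrps11, also of the platform, lay on the other side at -0.19 (SE 0.14), so the platform genes did not share a direction.

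In the head of the small subunit, Mrps7, which organises its assembly, read 9.24 and 9.52 in esiOgt samples against 9.15 and 9.17 in esiGFP samples, a difference of 0.22 (SE 0.15) that was 0.36 without esiOgt 1 and 0.08 without esiOgt 2. Mrps14, of the same region, differed by -0.17 (SE 0.12) with no overlap. Mrps12, a protein of the decoding centre whose bacterial relative is altered in streptomycin resistance, had a difference of -0.00 (95% confidence interval -0.41 to 0.41). Mrps16 and Mrps22, both mutated in human disorders of mitochondrial translation, differed by -0.07 (SE 0.14) and -0.12 (SE 0.13). Mrps34, specific to mitochondria, read 8.27 and 8.20 in esiOgt samples against 7.999 and 7.995 in esiGFP samples, at 0.24 (SE 0.12). Mrps28 differed by -0.15 (SE 0.13), Mrps21 by 0.01 (SE 0.14), Mrps26 by -0.10 (SE 0.14) and Mrps5 by 0.05 (SE 0.12).

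Symbols and structure disagree for 3 genes. The products of Mrps18a and Mrps30 are known to sit in the large subunit, and that of Mrps36 is known as a part of the oxoglutarate dehydrogenase complex. Mrps30 differed by 0.09 (SE 0.12) and Mrps36 by 0.01 (SE 0.13). With these genes placed by structure, the medians were -0.01 for 48 large subunit genes and 0.02 for 26 small subunit genes.

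The labels number the replicates 1 and 2 in each group without saying what a number shares. Taken within numbers, the difference had the same sign in both pairs for 64 of the 75 genes, 32 lower in both and 32 higher in both. That is 85.3%, where all symbols had 67.8%, with 32.5% lower in both and 35.3% higher in both. Among symbols at or above the median level it was 75.7%. The share was 40 of 46 in the large subunit and 24 of 29 in the small subunit. Across the 75 genes Pearson's r between the pairs was 0.75 and Spearman's rho 0.78, against 0.56 and 0.50 across all symbols and 0.74 and 0.69 across symbols at or above the median level. These are correlations across genes measured on the same 4 arrays, which are not independent replicates, and a probe set's level and composition are shared by both pairs.

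In pair 1 the esiOgt sample was lower for 33 genes and higher for 42, with a median of 0.04, beside 9806 lower and 10896 higher of all symbols (median 0.01). In pair 2 it was lower for 42 and higher for 33, with a median of -0.04, beside 10294 lower and 10399 higher of all symbols (median 0.00). The array medians over all probe sets were 6.41 for esiOgt 1 against 6.40 for esiGFP 1, and 6.43 for esiOgt 2 against 6.46 for esiGFP 2. Among symbols at or above the median level of all probe sets, the median difference was 0.03 in pair 1 and 0.04 in pair 2. No test was made of the gap between the pairs. By subunit the medians were -0.01 and -0.04 in the large subunit and 0.08 and 0.00 in the small subunit for pairs 1 and 2. In 11 genes the pairs had opposite signs, and the mean difference of each lay between -0.10 and 0.02. Among them, Mrps26 differed by 0.06 in pair 1 and -0.26 in pair 2, and Mrps16 by 0.08 and -0.23. Mrpl50 differed by -0.40 and -0.57, Mrpl54 by -0.36 and -0.61, and Mrpl47 by -0.09 and -0.63, the last of them the widest gap between pairs.

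**Figure D3:**
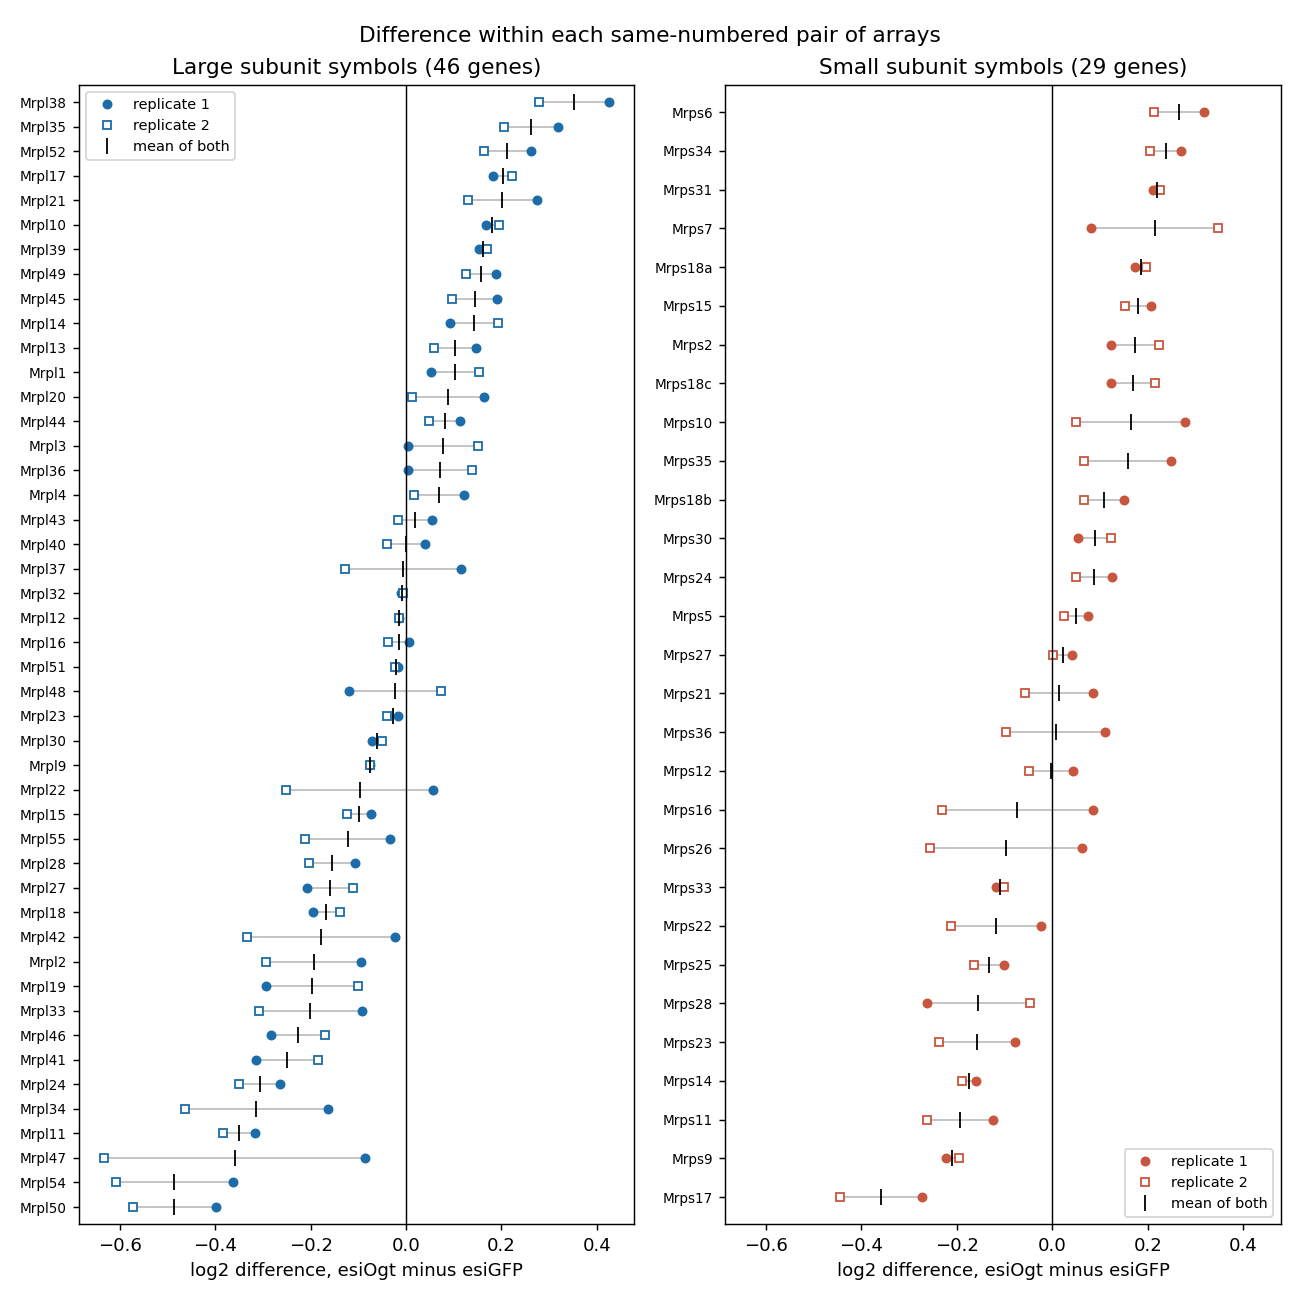
Log2 difference, esiOgt minus esiGFP (horizontal axis), within the arrays numbered 1 (filled circles) and numbered 2 (open squares) for each gene, with their mean as a black bar and genes ordered by it. In 64 of 75 genes both points lie on the same side of 0.

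**Figure D4:**
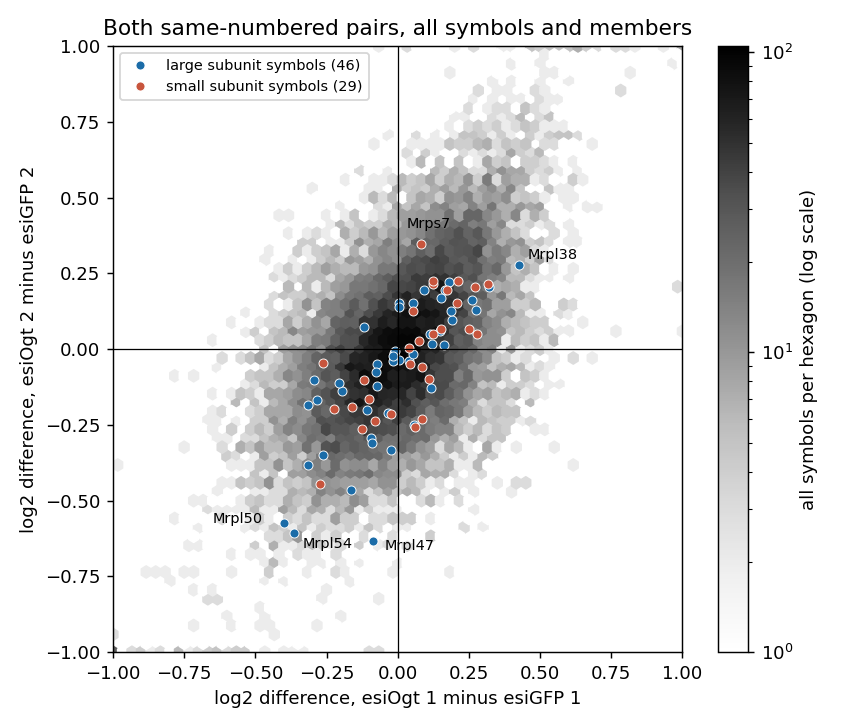
Log2 difference in pair 1 (horizontal axis) against pair 2 (vertical axis) for the large and small subunit symbols, over a grey count of all 20723 symbols, with values beyond the axes drawn at the edge. The members lie along the same diagonal as the bulk of the symbols, with r of 0.75 against 0.56 across all symbols and 0.74 across symbols at or above the median level.

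For 12 genes the table holds 2 probe sets. In 7 of them both went the same way, as in Mrpl47, where the probe set used differed by -0.36 (SE 0.17) and the other one by -0.30 (SE 0.13). In the other 5 the probe sets differed in sign. For Mrps30 the probe set used differed by 0.09 and the other one by -0.23 (SE 0.12), each without overlap between the groups. For Mrpl51 the values were -0.02 and 0.11, for Mrpl23 -0.03 and 0.02, for Mrps5 0.05 and -0.01, and for Mrps36 0.01 and -0.02. All of these are within the standard error of the fit except the second probe set of Mrps30. RefSeq lists pseudogenes of 4 members, Mrpl23, Mrpl27, Mrpl48 and Mrps36, each of which has 2 probe sets here. Which probe set reads the gene and which a near-identical copy cannot be told from the table.

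Genes that act with the mitochondrial ribosome were counted in the same way. Of 7 mitoribosomal proteins with other symbols, 4 were higher and 3 lower (median 0.11), with 0 at an unadjusted p under 0.05 in limma. Ict1, which releases peptides from stalled ribosomes, differed by 0.12 (SE 0.12) and Chchd1 by -0.23 (SE 0.16). Of 21 measured genes of mitoribosome assembly and ribosomal RNA modification, 12 were higher and 9 lower (median 0.02). At that level stood 1 of the 21, beside 6.06% of all symbols. That gene was Trub2, a pseudouridine synthase of mitochondrial RNA, which read 9.33 and 9.48 in esiOgt samples against 8.90 and 8.79 in esiGFP samples. Its groups did not overlap, with a difference of 0.56 (SE 0.13), an unadjusted p of 0.0101 and an adjusted p of 0.674 in limma. The unadjusted p in limma was 0.0679 without esiGFP 2 and 0.0511 without esiOgt 2. Mterfd1, needed for the assembly of the ribosome, differed by -0.27 (SE 0.11).

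Of 13 translation factors, 7 were higher and 6 lower (median 0.05), with 0 at that level. Gfm2, a factor of ribosome recycling, differed by 0.32 (SE 0.12) and Mtfmt, which formylates the initiator methionyl-tRNA, by 0.39 (SE 0.18). The largest differences in size were on the lower side, in genes picked out after their values were seen. Guf1 differed by -0.48 (SE 0.31) with overlapping groups, and Mtrf1 by -0.47 (SE 0.22) without overlap. Of 19 measured genes that charge mitochondrial tRNAs, 12 were higher and 7 lower (median 0.03), and 2 stood at an unadjusted p under 0.05 in limma, both higher, where 6.06% of all symbols stood in either direction and 3.4% on the higher side. Qrsl1, a subunit of the amidotransferase that makes glutaminyl-tRNA, read 8.40 and 8.35 in esiOgt samples against 8.02 and 8.03 in esiGFP samples, at 0.35 (SE 0.11). Wars2, the tryptophanyl-tRNA synthetase, read 8.82 and 9.01 in esiOgt samples against 8.55 and 8.56 in esiGFP samples, at 0.36 (SE 0.13). Both lay above the esiGFP arrays, and neither passed over all probe sets. With any 1 sample left out neither kept an unadjusted p under 0.05 in limma, with 0.0925 to 0.143 for Qrsl1 and 0.0551 to 0.193 for Wars2, and Wars2 had 0.0616 with quantile normalization.

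Of 11 measured genes of mitochondrial transcription and RNA stability, 4 were higher and 7 lower (median -0.05), with Elac2, which trims tRNA ends, at -0.25 (SE 0.16) and Lrpprc, which stabilises mitochondrial messenger RNA, at 0.18 (SE 0.13). Of 14 measured regulators of nuclear mitochondrial genes, 9 were higher and 5 lower (median 0.07), and neither list had a gene at an unadjusted p under 0.05 in limma. Ppara differed by 0.30 (SE 0.15), with 6.35 and 6.62 in esiOgt samples against 6.14 and 6.23 in esiGFP samples. Ppargc1a differed by 0.25 (SE 0.14) at a low level, 4.39 and 4.27 against 3.96 and 4.195, below the median of every array. Sp1 at -0.18 (SE 0.11), Ppargc1b at -0.19 (SE 0.14) and Esrra at -0.15 (SE 0.12) were lower without overlap. These 3 genes were picked out after their values were seen. Gabpa, Yy1 and Nrf1, which encode factors of the motifs searched and were picked out after their values were seen, differed by 0.08 (SE 0.12), 0.04 (SE 0.24) and -0.03 (SE 0.12). Myc, known to raise many mitochondrial and ribosomal genes and picked out after its values were seen, read 7.82 and 10.04 in esiOgt samples against 7.54 and 9.78 in esiGFP samples. Its level followed the replicate number far more than the group, whose difference was 0.27 (SE 1.07), and its part in the values of the mitoribosomal genes was not tested.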

How the data were processed

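Total RNA of 4 samples, 150 ng each, was labelled and put on arrays with 1 colour. The authors' deposited values are log2 expression levels per probe set, made with RMA per the submitters' processing notes. For each probe set the authors' deposited comparison table gives the fold on the log2 scale with its p-value, from limma per those notes. RMA equalises the arrays' distributions, so a shift common to all genes would not be seen. Array annotation and scan batches: not given in the sources used here.

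All 34760 probe sets were fitted with limma 3.58.1 in R 4.3.3 (lmFit and eBayes, group as the only term, two-sided, Benjamini-Hochberg adjustment at 0.05). The fit, with 2 residual and 4.38 moderated degrees of freedom, came within 4.84e-08 of the p-values in the authors' deposited table. On simulated data of 34760 probe sets for this comparison, it called 0 of 50 changes of 1 on the log2 scale, 9 of 50 of 1.5, 27 of 50 of 2 and 42 of 50 of 3. It also called 5 of 34560 unchanged probe sets. The simulated noise was independent between arrays, while deviations of same-numbered samples had a correlation of 0.479. The rates may therefore differ on the measured arrays. Precision is limited by the number of arrays.

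The members and lists were chosen with earlier results of these data known. Named genes were, per subunit, the 4 with the smallest p in each direction and the 3 highest and 2 lowest in probe set signal (a means of choice, not a comparison of expression), together with 13 set genes, genes whose probe sets differ in sign, the 2 with the smallest p of each of 8 lists, and Ogt. Lists were counted, not tested. All 75 accessions matched RefSeq under the same symbol. Alternatives covered scaling, filters, the replicate block, the variance prior, the choice of probe set, subunits by structure and leaving out each sample. Tables were handled with Python 3.11.15 and pandas 2.3.3.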

Additional observations from a re-analysis of the deposited data

How the results depend on the processing

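Under each alternative run, 0 probe sets had an adjusted p under 0.05 in limma. Of the mitoribosomal genes, 2 to 3 (2.67% to 4.0%) stood at an unadjusted p under 0.05 in limma under the scalings, filters and most other settings. The share over symbols in these settings was 5.66% to 8.39%. With a variance prior that follows the level, 4 genes (5.33%) did, beside 6.08% of symbols. Leaving out 1 sample in turn gave 0 to 3 such genes (0 without esiGFP 1, esiGFP 2 or esiOgt 2, and 3 without esiOgt 1) and 373 to 1286 of all symbols. These fits assume that the lone sample varies like the other group. The large subunit median was -0.039 with quantile normalization and -0.039 to -0.018 with 1 sample left out. With the replicate number as a block, 2782 symbols (13.4%) and 6 mitoribosomal genes (8.0%) stood at that level, namely Mrpl11, Mrpl24, Mrpl38, Mrpl50, Mrpl54 and Mrps17. Deviations of same-numbered samples had a correlation of 0.479, but the labels do not say what a number shares and there are 2 pairs, so pairing is not established. Same-numbered arrays correlated at 0.991 and 0.990 over all probe sets, and arrays of 1 group at 0.986 (esiOgt) and 0.989 (esiGFP). The p of Mrps17 was 0.0340 with the block in limma. Of 52 named genes, 10 changed sign in 19 values. In the fit used for the results above, the differences of these genes were at most 0.11 in size. Mrps12 was 0.0043 with arrays centred on their median, and Mrps36 was -0.026 with quantile normalization. Where probe sets of 1 gene were averaged, Mrps30 was -0.068, Mrps36 -0.0069 and Mrpl51 0.042. With 1 sample left out, Mrpl40 ran from -0.089 to 0.089, Mrpl23 from -0.13 to 0.071, Mrpl12 from -0.13 to 0.11, Mrps18b from -0.024 to 0.24, Mrps21 from -0.10 to 0.13, Mrps12 from -0.13 to 0.13, Mrps16 from -0.16 to 0.016 and Mrps36 from -0.071 to 0.085. Without a change of sign, 1 sample left out also moved many other named genes by over 1.5 times. Examples are Mrps18a (0.05 to 0.32), Mrps28 (-0.25 to -0.06), Mrps22 (-0.20 to -0.04), Mrps11 (-0.30 to -0.09) and Mrpl41 (-0.37 to -0.13). The cause of these changes was not tested.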
